A study of Mus musculus with 26 samples.

Results

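The genes described here are 34 genes of sugar breakdown and of the response to low oxygen, measured by RNA sequencing in cultured osteoblasts, the bone-forming cells, from the mouse femur. They were taken by symbol from a list of pathway genes, which was drawn up with earlier results of these data known, out of the 26264 gene symbols of the count table. All 34 were in the table, and all 34 passed the filter on low counts that left 16566 genes for testing. The study asked how PRC1.1, a Polycomb complex that mono-ubiquitinates histone H2A, acts on Wnt signalling and bone remodelling.

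The 18 RNA libraries formed 6 groups of 3. The group CON-OLD-iBP is an old control labelled iBP, and the meaning of this code name is not given. CKO-OLD and CKO-YOUNG were osteoblasts of old and young Kdm2b fl/fl mice with Ocn-cre and the Ai14 reporter, on C57BL/6J, in which the CxxC domain of Kdm2b, the part of this PRC1.1 subunit that binds unmethylated CpG DNA, was deleted. CON-YOUNG was the control with Ocn-cre and Ai14 alone, so both CKO and CON cells carried driver and reporter. OLD and YOUNG were osteoblasts of C57BL/6J mice of 18 and 3 months, with no transgene named. The labels give no age in months for the CKO and CON groups. Ocn-cre is active in mature osteoblasts, so cells that had not reached that stage keep the domain, and the labels say that the knockout cells were screened after isolation without saying how. No old control of the CKO line without iBP was analysed here, so OLD, from another mouse line, is the old reference for both CKO-OLD and CON-OLD-iBP. Mouse line cannot be told apart from deletion or iBP there, and sex and library set, described below, differ in part as well. No oxygen level of the culture is stated in the labels used here.

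Glycolysis splits glucose into pyruvate in the cytosol. Osteoblasts are known to turn much of their glucose into lactate even when oxygen is present. Hypoxia-inducible factor (HIF) is a pair of subunits: the alpha subunit, encoded by Hif1a or Epas1, is hydroxylated on prolines and degraded when oxygen is present, and in low oxygen it persists, pairs with Arnt and binds DNA at the core letters ACGTG or GCGTG. Genes for glucose uptake, for most glycolytic enzymes and for blood vessel growth are known HIF targets. Since HIF is controlled mainly through the stability of the protein, the RNA of an alpha subunit is not a measure of HIF activity.

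Because the HIF core letters link most of these genes, 4 promoters are printed, those of Car9, the 1 gene called, of Pfkfb4 and Aldoc, which differed between several groups with no overlap, and of Ldha, a steady gene whose window is the richest in these letters. They are from RefSeq (GRCm38.p6, plus strand, 250 bases before to 50 bases after the transcription start). These coordinates belong to that build and not to mm39, to which the reads were aligned. Capitals mark ACGTG or its reverse complement CACGT, joined into CACGTG where both fall together.
Car9 promoter, chr4:43506776-43507075: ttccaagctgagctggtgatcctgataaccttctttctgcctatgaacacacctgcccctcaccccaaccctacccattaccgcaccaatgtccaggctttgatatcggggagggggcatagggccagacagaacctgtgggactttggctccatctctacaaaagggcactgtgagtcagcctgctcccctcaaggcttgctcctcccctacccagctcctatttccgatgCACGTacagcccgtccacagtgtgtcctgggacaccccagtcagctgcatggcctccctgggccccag
Ldha promoter, chr7:46845554-46845853: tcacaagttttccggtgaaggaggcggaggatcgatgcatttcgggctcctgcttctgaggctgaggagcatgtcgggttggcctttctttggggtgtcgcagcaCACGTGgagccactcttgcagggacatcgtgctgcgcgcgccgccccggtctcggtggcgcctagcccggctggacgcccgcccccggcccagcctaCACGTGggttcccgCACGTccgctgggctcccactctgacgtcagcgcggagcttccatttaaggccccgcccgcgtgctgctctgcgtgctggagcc
Pfkfb4 promoter, chr9:108991652-108991951: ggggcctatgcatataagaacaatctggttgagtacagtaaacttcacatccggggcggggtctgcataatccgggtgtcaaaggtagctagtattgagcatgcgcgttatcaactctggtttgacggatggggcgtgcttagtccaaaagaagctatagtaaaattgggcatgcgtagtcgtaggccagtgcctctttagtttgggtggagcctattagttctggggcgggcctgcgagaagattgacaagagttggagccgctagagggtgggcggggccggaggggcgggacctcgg
Aldoc promoter, chr11:78322823-78323122: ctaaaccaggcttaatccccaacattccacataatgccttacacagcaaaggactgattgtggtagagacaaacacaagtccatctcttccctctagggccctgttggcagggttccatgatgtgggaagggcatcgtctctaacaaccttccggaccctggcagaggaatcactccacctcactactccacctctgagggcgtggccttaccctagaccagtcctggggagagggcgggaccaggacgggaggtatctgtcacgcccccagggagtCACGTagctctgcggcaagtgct
Car9 held 1 match, Aldoc 1 and Ldha 5, the most of the 31 genes with a window, since each of its 2 CACGTG palindromes counts on both strands. Pfkfb4 held 0 ACGTG and 1 GCGTG in this window. Windows were found for 31 of the 34 genes (45 windows), and 22 of the 31 genes (71.0%) had ACGTG on either strand in a window, beside 21.8% of all 27025 genes with one. By window, ACGTG was in 25 of the 45 (55.6%), beside 19.6% of all 32851 promoter windows of the same length. GCGTG was in 55.6% of the genes' windows and in 32.4% of all windows. The genes' windows were also richer in G and C, with a median of 62.0% against 52.7% in all windows. Among the 8701 windows with at least the median number of CG pairs of the genes' windows, 29.0% had ACGTG and 63.5% had GCGTG. A match is a description of letters and not evidence of binding.

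Library facts that touch the results are few. The 18 libraries held between 46.27 and 77.7 counts in units of 1e+06. Kdm2b, whose domain was deleted, had 19.3, 24.0 and 16.2 CPM in CON-OLD-iBP, 23.4, 57.2 and 28.4 in CKO-OLD, 51.5, 58.2 and 27.6 in CKO-YOUNG, 48.8, 52.9 and 19.9 in CON-YOUNG, 34.3, 19.3 and 31.1 in OLD, and 37.2, 37.5 and 22.6 in YOUNG. Gene-level counts cannot separate the CxxC exons, so these values neither check the deletion nor go against it. The libraries fell into 3 sets that cross the groups. Malat1, a nuclear RNA, took 0.0957% to 0.223% of the counts in set 3, which held all of CON-OLD-iBP and CKO-OLD together with CKO-YOUNG 3, CON-YOUNG 3, OLD 2 and YOUNG 3, and 0.0296% to 0.0435% in the others. Set 2 held CKO-YOUNG 1 and 2 and CON-YOUNG 1 and 2, and set 1 held OLD 1 and 3 and YOUNG 1 and 2. Xist, expressed from the inactive X chromosome of females, was at 391 CPM or more in set 1, where Ddx3y, a gene on the Y chromosome, was at 0 CPM, and at 0.404 CPM or less in sets 2 and 3 apart from CKO-YOUNG 3, which had 372 CPM of Xist and 21.3 CPM of Ddx3y. Set 1 thus differed from the others in sex, which cannot be told apart from set there, and CKO-YOUNG 3 carried RNA of both sexes. OLD 1 and 3 and YOUNG 1 and 2 are in set 1, whereas CKO-OLD, CON-OLD-iBP and CON-YOUNG have no library there. Sex therefore differs in part where these groups are compared with OLD or YOUNG. A list of 20 macrophage and monocyte markers made up 1.16% to 1.75% of all counts in set 1, but 0.0517% to 0.679% in set 3 and no more than 0.0220% in set 2. The 11 osteoblast markers took 1.65% to 6.19% of the counts. Their share was 4.50% to 6.19% in CON-YOUNG and 3.90% to 4.75% in CKO-YOUNG, and it was lowest in CON-OLD-iBP 3. Of these markers, Bglap, the osteocalcin gene, did not follow the list. It had 0.152, 0 and 0.306 CPM in CKO-YOUNG and 0.150, 0 and 9.89 CPM in CON-YOUNG, beside 25.2 to 83.6 CPM in the other groups. CPM are counts scaled to a TMM-adjusted library size of 1e+06, and 1 count was worth 0.0127 to 0.0203 CPM. In bulk RNA of this kind, fewer cells of a type and less RNA per cell cannot be told apart. The labels do not tell whether the 3 libraries of a group are separate animals or cultures. By Xist and Ddx3y, OLD and YOUNG each hold libraries of both sexes, and so RNA of more than 1 animal. Among libraries of the same set within a group, the spread that the p-values rest on could be technical alone.

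Together the 34 genes took 1.32% to 2.16% of the counts of a library. The ratio of the highest to the lowest library was under 2 for 6 genes, Tpi1, Pgam1, Aldoa, Gapdh, Pfkl and Ldha, from 2 to 3 for 14 genes, from 3 to 10 for 9 genes, and 10 or more for Eno2, Epas1, Ndrg1, Aldoc and Car9. The steady genes were thus core enzymes of the pathway, and the variable ones were minor isozymes, an alpha subunit and hypoxia targets. Tpi1, triosephosphate isomerase, was the steadiest, between 627 and 890.4 CPM, and Car9 the least steady, between 0.371 and 48.6 CPM. CKO-YOUNG 3 was the lowest of the 18 libraries for 9 genes, and YOUNG 3 the highest for 6.

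**Figure D1:**
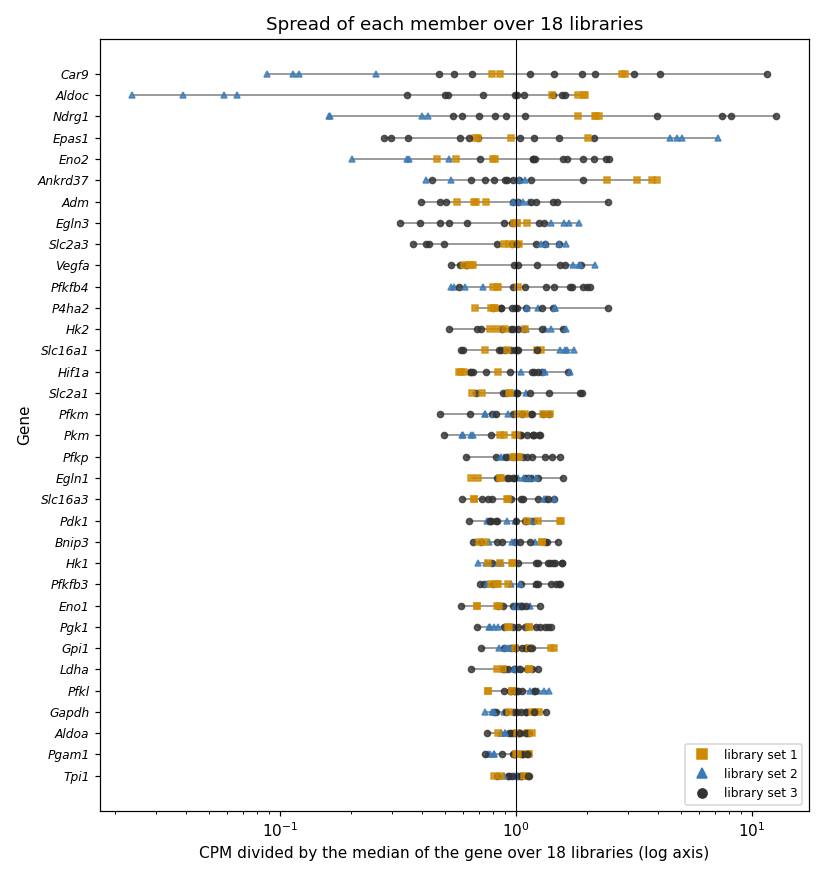
CPM of each of the 34 genes divided by its median over the 18 libraries, on a log axis, with 1 point per library and genes ordered by spread. Tpi1 and Pgam1 keep to a narrow band, while Ndrg1, Aldoc and Car9 span the widest ranges.

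The entry of glucose is served by the transporters Slc2a1 (GLUT1) and Slc2a3 (GLUT3) and by the hexokinases Hk1 and Hk2, which phosphorylate glucose and so trap it in the cell. In each list of 3 values below, the libraries run from replicate 1 to 3. Slc2a1 had 359.8, 260.1 and 127 CPM in CON-OLD-iBP, 188, 191 and 166 in CKO-OLD, 173, 189 and 171 in CKO-YOUNG, 187, 207 and 191 in CON-YOUNG, 175, 216 and 178 in OLD, and 135, 123 and 352 in YOUNG. CON-OLD-iBP 1 and YOUNG 3 stood highest, and both belong to groups whose other libraries were lower, so these groups overlapped all others. Slc2a3 had 4.97, 13.3 and 4.30 CPM in CON-OLD-iBP, 8.37, 15.2 and 12.2 in CKO-OLD, 16.4, 13.5 and 9.67 in CKO-YOUNG, 15.3, 12.8 and 3.68 in CON-YOUNG, 9.92, 10.1 and 10.4 in OLD, and 8.89, 9.39 and 4.17 in YOUNG. The 4 libraries under 5 CPM, CON-OLD-iBP 1 and 3, CON-YOUNG 3 and YOUNG 3, were all in set 3. Hk1, the hexokinase of most tissues, had 335, 376 and 246 CPM in CON-OLD-iBP, 300.1, 353 and 329 in CKO-OLD, 167, 179.8 and 191 in CKO-YOUNG, 203, 208 and 293 in CON-YOUNG, 235, 346 and 232 in OLD, and 184, 205 and 377 in YOUNG. Every library of sets 1 and 2 was at or under 235 CPM, and every library of set 3 except CKO-YOUNG 3 was at or above 246 CPM. Hk2, the hexokinase that HIF and insulin are known to induce, had 82.5, 120.2 and 66.6 CPM in CON-OLD-iBP, 52.2, 73.7 and 72.6 in CKO-OLD, 101, 124 and 39.4 in CKO-YOUNG, 83.9, 107 and 53.8 in CON-YOUNG, 58.9, 77.9 and 62.9 in OLD, and 68.2, 82.9 and 98.4 in YOUNG. CKO-YOUNG held both its highest and its lowest library.

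Upper glycolysis turns the trapped sugar into triose phosphates. Gpi1, which turns glucose 6-phosphate into fructose 6-phosphate, ran from 427 CPM in CKO-YOUNG 3 to 869 CPM in OLD 3. Of the phosphofructokinase subunits, Pfkl, the liver type, lay between 264 and 479 CPM, and Pfkp, the platelet type, between 67.9 and 169 CPM. Pfkm, the muscle-type subunit, lay between 19.1 and 55.4 CPM, and its 2 lowest libraries were CON-OLD-iBP 3 and 1. Aldoa, the main aldolase, was between 1337 and 2072 CPM. Aldoc, the aldolase best known from brain, had 16.2, 7.69 and 15.1 CPM in CON-OLD-iBP, 21.4, 23.4 and 14.8 in CKO-OLD, 0.355, 0.583 and 7.48 in CKO-YOUNG, 0.985, 0.864 and 5.18 in CON-YOUNG, 29.0, 10.9 and 27.5 in OLD, and 29.3, 21.4 and 24.1 in YOUNG. It was under 1 CPM in all 4 libraries of set 2, at 7.48 CPM in CKO-YOUNG 3 and 5.18 CPM in CON-YOUNG 3, and at or above 7.69 CPM elsewhere. Pfkfb3 and Pfkfb4 make and break fructose 2,6-bisphosphate, the activator of phosphofructokinase. Pfkfb3 had 47.2, 51.2 and 45.0 CPM in CON-OLD-iBP, 67.7, 98.4 and 90.2 in CKO-OLD, 61.0, 48.4 and 97.5 in CKO-YOUNG, 77.8, 67.1 and 78.2 in CON-YOUNG, 53.4, 79.4 and 54.1 in OLD, and 50.3, 59.1 and 95.0 in YOUNG, and CON-OLD-iBP held 2 of its 3 lowest values. Pfkfb4 had 54.7, 64.6 and 66.4 CPM in CON-OLD-iBP, 43.3, 46.9 and 35.3 in CKO-OLD, 17.1, 17.7 and 18.5 in CKO-YOUNG, 19.6, 23.5 and 62.2 in CON-YOUNG, 26.8, 31.5 and 25.8 in OLD, and 27.1, 32.9 and 55.9 in YOUNG. All CON-OLD-iBP libraries lay above all CKO-OLD libraries, and all CKO-OLD libraries above all CKO-YOUNG libraries.

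Lower glycolysis makes ATP and ends in pyruvate. Pkm, pyruvate kinase, had 4779, 5089 and 3594 CPM in CON-OLD-iBP, 5378, 4733 and 5398 in CKO-OLD, 2718, 2934 and 2265 in CKO-YOUNG, 2699, 3016 and 5759 in CON-YOUNG, 4515, 5744 and 4592 in OLD, and 4083, 3907 and 5452 in YOUNG. The 4 libraries of set 2 and CKO-YOUNG 3 were its 5 lowest. Eno1, the main enolase, spanned 1689 to 3679.8 CPM. Pgk1, the first ATP-forming kinase of the chain, spanned 831 to 1718 CPM, the mutase Pgam1 650.1 to 995 CPM and the dehydrogenase Gapdh 121 to 219 CPM. Under symbols built from the gene's own name, the RefSeq gene table lists 3 pseudogenes for Gapdh and 7 for Tpi1. It lists 3 each for Ldha and Pgk1, 2 each for Pgam1 and Aldoa and 1 for Gpi1. Pseudogenes under other symbols were not counted, so the true numbers may be higher. Eno1b is a near-identical copy of Eno1. Reads of all these genes may have been split, and their levels are uncertain. Eno2, the neuronal enolase, had 16.3, 15.9 and 15.9 CPM in CON-OLD-iBP, 32.6, 22.3 and 28.9 in CKO-OLD, 7.07, 4.68 and 21.3 in CKO-YOUNG, 4.76, 2.74 and 25.9 in CON-YOUNG, 11.1, 33.6 and 10.9 in OLD, and 7.56, 6.23 and 9.50 in YOUNG. In CKO-YOUNG, CON-YOUNG, OLD and YOUNG alike, the library of set 3 was the highest of its group.

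Pyruvate is turned into lactate by Ldha, and lactate leaves the cell through Slc16a3 (MCT4) or Slc16a1 (MCT1). Pdk1 is a kinase that inactivates pyruvate dehydrogenase. Ldha lay between 1230.2 CPM in CKO-YOUNG 3 and 2371 CPM in YOUNG 3. Slc16a1 lay between 25.0 and 75.2 CPM, and Slc16a3 between 169.8 and 419 CPM, the lowest in both cases being CON-OLD-iBP 3. Pdk1 lay between 58.8 CPM in CON-OLD-iBP 2 and 144 CPM in OLD 1.

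Of the HIF machinery, Hif1a had 211, 217 and 213 CPM in CON-OLD-iBP, 311, 429 and 395 in CKO-OLD, 438, 349 and 550.5 in CKO-YOUNG, 558, 429 and 387 in CON-YOUNG, 200.2, 411 and 190.2 in OLD, and 194, 279 and 248 in YOUNG. The CON-OLD-iBP libraries were close together, whereas OLD 2 stood far above OLD 1 and 3. Epas1, which encodes the HIF-2 alpha subunit, had 37.6, 56.8 and 19.0 CPM in CON-OLD-iBP, 31.6, 65.1 and 82.7 in CKO-OLD, 276, 244 and 116 in CKO-YOUNG, 389, 261 and 16.0 in CON-YOUNG, 36.6, 15.0 and 37.5 in OLD, and 51.8, 110.1 and 34.5 in YOUNG. The 4 libraries of set 2 stood at 244 CPM or more, and the set 3 libraries of the same groups at 116 and 16.0 CPM. Egln1, the main prolyl hydroxylase that marks HIF alpha for degradation, had 187, 178 and 201 CPM in CON-OLD-iBP, 182, 151 and 149 in CKO-OLD, 176, 165 and 135 in CKO-YOUNG, 197, 183 and 158 in CON-YOUNG, 139, 158 and 141 in OLD, and 112, 104 and 258 in YOUNG. YOUNG held both the highest value, in library 3, and the 2 lowest. Egln3, a prolyl hydroxylase that is itself a HIF target, had 4.53, 5.49 and 17.6 CPM in CON-OLD-iBP, 12.4, 18.3 and 6.68 in CKO-OLD, 22.3, 23.6 and 13.8 in CKO-YOUNG, 26.0, 19.7 and 13.5 in CON-YOUNG, 14.2, 8.70 and 13.7 in OLD, and 14.2, 15.6 and 7.28 in YOUNG. In each of CKO-YOUNG, CON-YOUNG, OLD and YOUNG its lowest library was the one of set 3.

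The hypoxia targets outside glycolysis did not move as a block. Bnip3, a mitophagy receptor, had 119.9, 95.4 and 196 CPM in CON-OLD-iBP, 217, 143 and 103 in CKO-OLD, 139.6, 111 and 192 in CKO-YOUNG, 173, 145 and 126 in CON-YOUNG, 187, 151 and 186 in OLD, and 107, 101 and 166 in YOUNG, with overlapping groups throughout. Ankrd37 had 1.70, 1.01 and 1.84 CPM in CON-OLD-iBP, 2.35, 2.64 and 1.48 in CKO-OLD, 1.22, 2.35 and 4.39 in CKO-YOUNG, 2.51, 0.956 and 2.10 in CON-YOUNG, 7.48, 2.05 and 8.66 in OLD, and 9.03, 5.58 and 2.22 in YOUNG. The 4 libraries of set 1 were its 4 highest, at 5.58 CPM or more. Car9, a membrane carbonic anhydrase often used as a hypoxia marker, had 8.02, 9.10 and 4.80 CPM in CON-OLD-iBP, 17.1, 6.11 and 2.75 in CKO-OLD, 0.507, 0.371 and 1.98 in CKO-YOUNG, 1.07, 0.478 and 2.30 in CON-YOUNG, 12.2, 13.3 and 11.8 in OLD, and 3.58, 3.32 and 48.6 in YOUNG. One library, YOUNG 3, stood far above all others, and the 4 libraries of set 2 were near or under 1 CPM. Vegfa, the growth factor for blood vessels, had 419, 342 and 272 CPM in CON-OLD-iBP, 137, 217 and 138 in CKO-OLD, 414, 412 and 226 in CKO-YOUNG, 482, 389.5 and 118 in CON-YOUNG, 144, 129 and 134 in OLD, and 142, 147 and 358 in YOUNG. The high libraries were the 4 of set 2, those of CON-OLD-iBP and YOUNG 3. Ndrg1, a gene known to be induced by hypoxia and by differentiation, had 274, 85.2 and 161 CPM in CON-OLD-iBP, 12.8, 15.0 and 17.6 in CKO-OLD, 3.48, 3.51 and 23.5 in CKO-YOUNG, 9.14, 8.64 and 19.6 in CON-YOUNG, 46.9, 11.6 and 48.7 in OLD, and 46.5, 39.5 and 176 in YOUNG. All 3 CON-OLD-iBP libraries and YOUNG 3 were above 80 CPM, and no other library reached 50 CPM. Adm, the vasodilator peptide adrenomedullin, had 30.2, 61.3 and 28.6 CPM in CON-OLD-iBP, 86.1, 89.8 and 58.3 in CKO-OLD, 68.4, 61.4 and 148 in CKO-YOUNG, 58.4, 64.2 and 23.7 in CON-YOUNG, 40.7, 72.8 and 45.0 in OLD, and 33.8, 39.8 and 69.4 in YOUNG, with CKO-YOUNG 3 highest and CON-YOUNG 3 lowest. P4ha2, a collagen prolyl hydroxylase, had 378, 253 and 209 CPM in CON-OLD-iBP, 289.8, 259 and 264 in CKO-OLD, 325, 291 and 337 in CKO-YOUNG, 383, 385 and 227 in CON-YOUNG, 213, 226 and 215 in OLD, and 176, 206 and 645 in YOUNG. YOUNG 3 was again alone at the top.

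**Figure D2:**
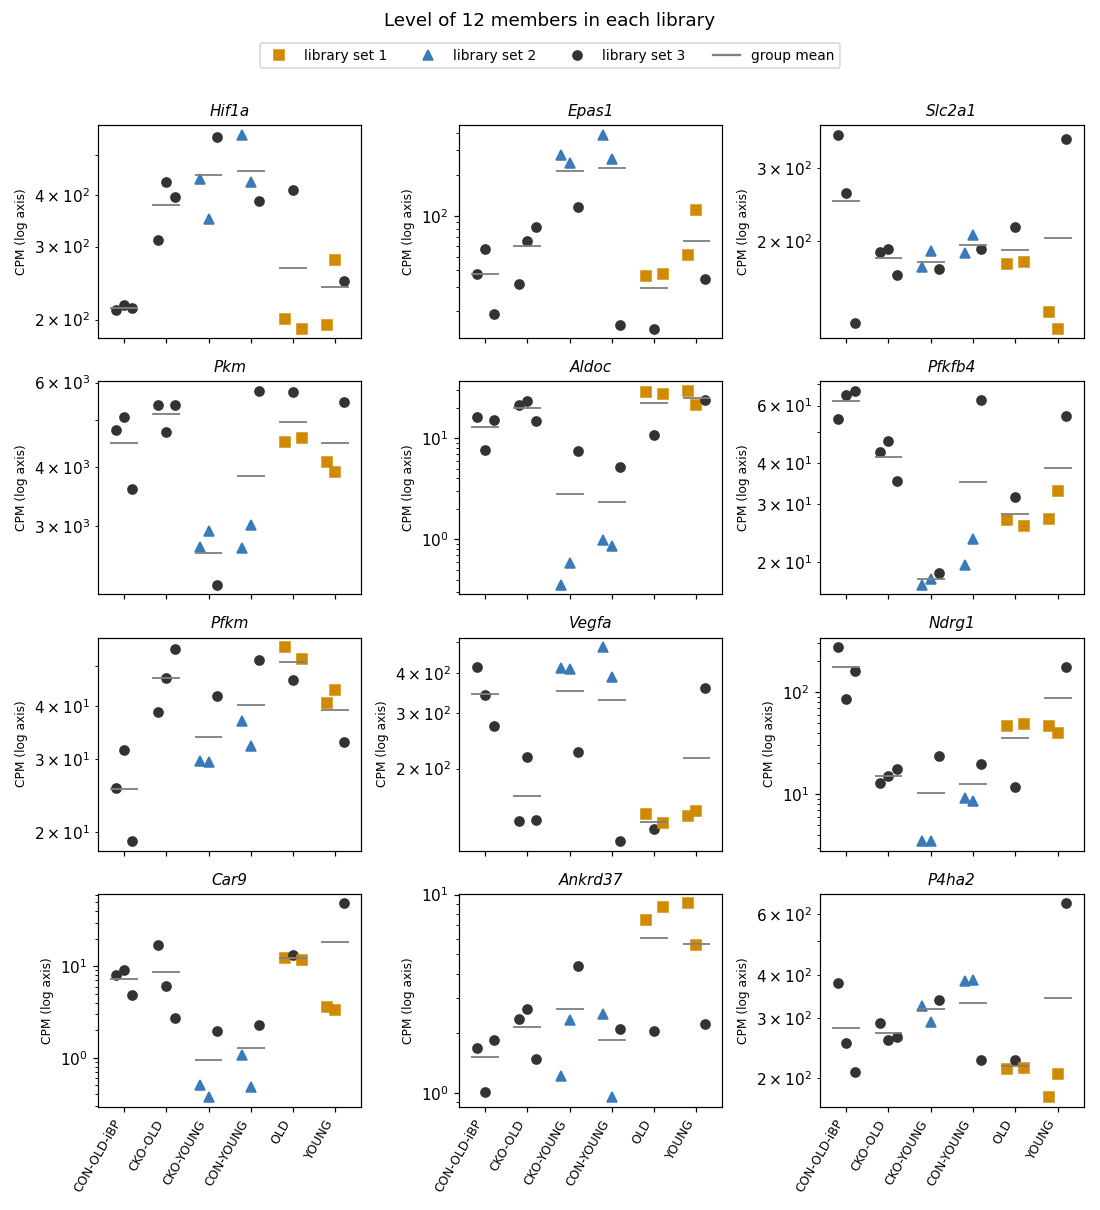
CPM of 12 genes on log axes in each library, by group, with marker shape and colour giving the library set. Ndrg1 and Pfkfb4 are high in all 3 CON-OLD-iBP libraries, Aldoc and Car9 are low in set 2, and YOUNG 3 stands apart from YOUNG 1 and 2 for Car9, Ndrg1, P4ha2 and Slc2a1.

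YOUNG 3 differed from YOUNG 1 and 2 across much of the set. It was higher than the mean of the other two for 27 of the 34 genes, by at least 1.5-fold for 15 and by at least 2-fold for 7, Car9, Ndrg1, P4ha2, Slc2a1, Vegfa, Egln1 and Slc16a3. It was lower by at least 2-fold for 4. The same library had 1.47% of its counts in 7 chondrocyte markers, against 0.0261% in YOUNG 1 and 0.00601% in YOUNG 2, and 0.377% in macrophage markers, against 1.75% and 1.16%. The part of these in the difference was not tested. The other groups with libraries in 2 sets showed no such lean to one side: the library of set 3 was above both others for 14 genes and below both for 19 in CKO-YOUNG, for 17 and 15 in CON-YOUNG, for 15 and 18 in OLD, and for 26 and 6 in YOUNG.

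**Figure D3:**
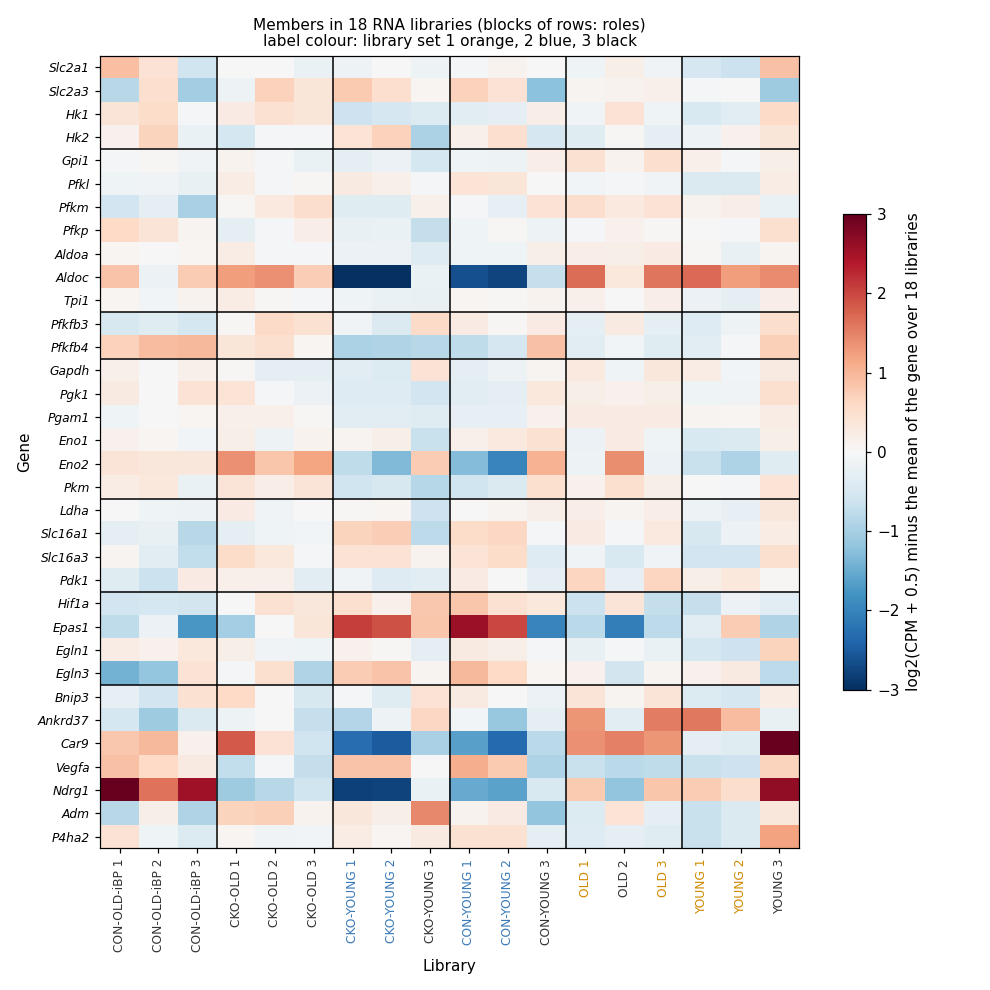
Each cell is log2(CPM + 0.5) of a gene in a library minus the mean of that gene over the 18 libraries, with genes in rows by role, libraries in columns by group, and label colour giving the library set. The YOUNG 3 column is red for most genes, and the block of Aldoc and Car9 in set 2 is blue.

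The 6 groups give 8 comparisons of levels and 2 of differences. A gene is called changed where edgeR's quasi-likelihood F test, adjusted by Benjamini-Hochberg over all 16566 genes, gives a p under 0.05. One call was made among the 34 genes in all of them, of Car9, in CON-YOUNG against YOUNG. DESeq2, used as an alternative, gave an adjusted p for 33 of the 34 genes in each comparison, so the remaining gene could not be called by it. For the 34 genes, the count in each direction and the median are set beside the same for all genes tested, as a description.

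The first comparison asks what the deletion does in young cells. Between CKO-YOUNG and CON-YOUNG, 0 of the 34 genes were called by edgeR, DESeq2 or limma-voom, and 0.127% of all genes were called by edgeR. At an unadjusted p under 0.05 there was 1 gene of 34, beside 5.48% of all genes. Most of the set had lower values in CKO-YOUNG: 25 of the 34 log2 fold changes were negative and 9 positive, beside 51.6% negative among all genes, with a median of -0.14 beside -0.01 for all genes. The groups did not overlap for 8 genes, all lower in CKO-YOUNG, Hk1, Gpi1, Pfkp, Aldoa, Tpi1, Pgk1, Pgam1 and Pfkfb4, beside 3.19% of all genes, and for 0 genes higher, beside 5.32%. Pfkfb4 had 17.1, 17.7 and 18.5 CPM in CKO-YOUNG and 19.6, 23.5 and 62.2 CPM in CON-YOUNG, a log2 fold change of -0.98 (SE 0.35, adjusted p = 0.634). Its difference rests on CON-YOUNG 3, as without that library the log2 fold change was -0.27. Gpi1 had 508, 539.7 and 427 CPM in CKO-YOUNG and 562, 553 and 701 CPM in CON-YOUNG (-0.30, SE 0.16, adjusted p = 0.979). Here each CKO-YOUNG library lay under each CON-YOUNG library, though the groups nearly touched. Pkm had 2718, 2934 and 2265 CPM in CKO-YOUNG and 2699, 3016 and 5759 CPM in CON-YOUNG (-0.54, SE 0.27, adjusted p = 0.95), and the groups overlapped. Adm had 68.4, 61.4 and 148 CPM in CKO-YOUNG and 58.4, 64.2 and 23.7 CPM in CON-YOUNG (0.92, SE 0.45, adjusted p = 0.924), high in CKO-YOUNG 3 and low in CON-YOUNG 3.

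Both groups hold libraries of set 2 and of set 3, so the comparison can be read within each. In set 2, with 2 libraries a group, 26 of 34 were negative, beside 49.0% of all genes, with a median of -0.14 beside 0.00, and 0 genes were called, beside 0.459% of all genes. In set 3, with 1 library a group and the spread taken from the other groups, 20 were negative, beside 48.8%, with a median of -0.18 beside 0.00, and 4 were called, Adm higher and Eno1, Pfkfb4 and Pkm lower, beside 6.72% of all genes. Each of these values sets CKO-YOUNG 3, which held RNA of both sexes, against CON-YOUNG 3. The 12 proliferation genes were all negative in this comparison as well, with a median of -0.28, and so were the 11 osteoblast markers, with a median of -0.45. Of the macrophage markers 17 of 20 were positive (median 0.54), and of the chondrocyte markers 5 of 7 were negative (median -2.01). Their part in the values of the 34 genes was not tested.

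In old cells, CKO-OLD against OLD gave 0 called genes of 34 by edgeR, DESeq2 or limma-voom, beside 0.00604% of all genes by edgeR. An unadjusted p under 0.05 was reached by 2 of 34, beside 8.16% of all genes. The signs were split, 16 positive and 18 negative, beside 51.5% negative among all genes, with a median of -0.02 beside -0.01. There was no overlap for 4 genes higher in CKO-OLD, Pfkl, Pfkfb4, Slc16a3 and P4ha2, beside 8.90% of all genes, and for 3 lower, Gpi1, Pgam1 and Slc16a1, beside 8.47%. Gpi1 had 659, 598 and 530.3 CPM in CKO-OLD and 839, 659.5 and 869 CPM in OLD (-0.41, SE 0.16, adjusted p = 0.585), and the highest CKO-OLD library was just under the lowest OLD library. Ankrd37 had 2.35, 2.64 and 1.48 CPM in CKO-OLD and 7.48, 2.05 and 8.66 CPM in OLD (-1.49, SE 0.63, adjusted p = 0.586), the 2 high values being the OLD libraries of set 1. Hif1a had 311, 429 and 395 CPM in CKO-OLD and 200.2, 411 and 190.2 CPM in OLD (0.50, SE 0.27, adjusted p = 0.649), and OLD 2, of the same set as CKO-OLD, lay within the CKO-OLD range. Pfkfb3 had 67.7, 98.4 and 90.2 CPM in CKO-OLD and 53.4, 79.4 and 54.1 CPM in OLD (0.46, SE 0.27, adjusted p = 0.69), again with OLD 2 inside the CKO-OLD range. Within set 3, where OLD has 1 library, 18 genes were positive and 16 negative, beside 50.6% positive, with a median of 0.02 beside 0.00. All 20 macrophage markers, all 12 proliferation genes and 8 of 9 osteoclast markers had negative log2 fold changes (medians -1.77, -0.40 and -3.43), and 6 of 7 chondrocyte and 9 of 11 osteoblast markers had positive ones (medians 4.67 and 0.31). Their part was not tested.

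Over both ages, the CKO groups against CON-YOUNG and OLD gave 0 called genes of 34 by edgeR, DESeq2 or limma-voom, beside 0.531% of all genes by edgeR, and 2 genes at an unadjusted p under 0.05, beside 8.38%. The median was -0.12 beside -0.03 for all genes, with 13 genes positive and 21 negative, beside 53.7% negative among all genes. Gpi1 averaged 596 ± 64.4 CPM in CKO-OLD and 492 ± 58.0 CPM in CKO-YOUNG, beside 605 ± 82.7 CPM in CON-YOUNG and 789 ± 113 CPM in OLD (SD, n = 3 each), with a log2 fold change of -0.35 (SE 0.12, adjusted p = 0.297). Gpi1 and Pgam1 were the 2 genes of the 34 whose groups did not overlap, with CKO lower, at both ages, beside 0.410% of all genes, and 0 of the 34 were higher at both ages, beside 1.88%. With the libraries of both ages pooled, the CKO and the other libraries did not overlap for 0 of the 34 genes in either direction, beside 0.115% of all genes lower and 0.948% higher. Adm had a log2 fold change of 0.74 (SE 0.31, adjusted p = 0.514), Pdk1 of -0.33 (SE 0.18, adjusted p = 0.694) and Aldoa of -0.20 (SE 0.11, adjusted p = 0.711). Adm had 86.1, 89.8 and 58.3 CPM in CKO-OLD and 68.4, 61.4 and 148 CPM in CKO-YOUNG, beside 58.4, 64.2 and 23.7 CPM in CON-YOUNG and 40.7, 72.8 and 45.0 CPM in OLD. Pdk1 had 102, 102 and 73.2 CPM in CKO-OLD and 85.7, 70.3 and 72.6 CPM in CKO-YOUNG, beside 108, 92.2 and 76.3 CPM in CON-YOUNG and 144, 77.4 and 143 CPM in OLD. Aldoa had 2021, 1689 and 1664 CPM in CKO-OLD and 1544, 1536 and 1337 CPM in CKO-YOUNG, beside 1593, 1603 and 1981 CPM in CON-YOUNG and 1988, 1960.1 and 2072 CPM in OLD. For each of these 3 genes the CKO libraries and the others overlapped. Within set 3, 5 genes were called over both ages, Adm and Epas1 higher and Eno1, Pfkfb4 and Pkm lower, beside 6.58% of all genes, with CKO-YOUNG, CON-YOUNG and OLD each at 1 library. All 20 macrophage markers and all 12 proliferation genes were negative in this comparison (medians -0.58 and -0.37), and their part was not tested.

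The effect of the deletion was then compared between ages, as the difference of the 2 differences. None of the 34 genes passed in this test by edgeR, DESeq2 or limma-voom, and edgeR called 0 of all genes (0%, with 4.81% at an unadjusted p under 0.05). Pfkfb4 had the smallest p of the 34. It was lower in CKO-YOUNG than in CON-YOUNG with no overlap and higher in CKO-OLD than in OLD with no overlap, at 43.3, 46.9 and 35.3 CPM in CKO-OLD against 26.8, 31.5 and 25.8 CPM in OLD. The difference was 1.56 on the log2 scale (SE 0.50, unadjusted p = 0.00689, adjusted p = 0.963), and without CON-YOUNG 3 it was 0.85 (adjusted p = 0.849). Next came Ankrd37 at -2.01 (SE 0.89, adjusted p = 0.963), Hk1 at 0.66 (SE 0.37, adjusted p = 0.963) and Pkm at 0.60 (SE 0.38, adjusted p = 0.963), whose values per library stand above. Of the 34 differences 22 were positive and 12 negative, beside 49.8% positive among all genes, with a median of 0.12 beside -0.00. All 20 macrophage markers were negative and 10 of 11 osteoblast markers positive here (medians -2.23 and 0.70), and their part was not tested.

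Age in mice without a transgene is compared by OLD against YOUNG. None of the 34 genes was called by edgeR, DESeq2 or limma-voom, and edgeR called 0% of all genes, with 3.34% of all genes and 0 of the 34 at an unadjusted p under 0.05. Of the 34 genes, 20 were positive and 14 negative, beside 45.5% positive among all genes, with a median of 0.09 beside -0.03. The groups did not overlap for 5 genes higher in OLD, Aldoa, Eno2, Pfkm, Pgam1 and Slc2a3, beside 5.73% of all genes, and for 0 lower, beside 5.63%. Eno2 had 11.1, 33.6 and 10.9 CPM in OLD and 7.56, 6.23 and 9.50 CPM in YOUNG (1.25, SE 0.72, adjusted p = 1), with OLD 2 far above the other OLD libraries. Pfkm had 55.4, 46.3 and 51.9 CPM in OLD and 40.8, 43.8 and 32.9 CPM in YOUNG (0.39, SE 0.23, adjusted p = 1). P4ha2 had 213, 226 and 215 CPM in OLD and 176, 206 and 645 CPM in YOUNG (-0.65, SE 0.38, adjusted p = 1), so that its negative value rests on YOUNG 3. Gpi1 had 839, 659.5 and 869 CPM in OLD and 683, 593 and 689 CPM in YOUNG (0.27, SE 0.16, adjusted p = 1), with OLD 2 inside the YOUNG range.

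The direction of the age comparison turned with the library set. In set 1, with 2 libraries a group, 27 of the 34 genes were positive, beside 46.8% of all genes, with a median of 0.24 beside -0.02. In set 3, with OLD 2 against YOUNG 3, 24 were negative, beside 50.8%, with a median of -0.27 beside -0.01. Without YOUNG 3 the whole comparison had 26 positive, beside 49.5%, and a median of 0.27 beside 0.00. Osteoclast markers took 0.226% and 0.232% of the counts in OLD 1 and 3 and at most 0.0446% in every other library, and 8 of 9 were positive in OLD against YOUNG (median 4.35). Osteoblast markers were negative for 9 of 11 (median -0.82, 7 of them with no overlap), macrophage markers for 19 of 20 (median -0.44) and chondrocyte markers for 6 of 7 (median -6.18). The part of these lists was not tested.

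The iBP group was compared with OLD and with CKO-OLD. Against OLD, 0 of the 34 genes were called by edgeR or limma-voom and 5 by DESeq2, Ankrd37, Ndrg1, Pfkfb4, Pfkm and Vegfa. The background was 0.0241% of all genes by edgeR and 13.1% by DESeq2. At an unadjusted p under 0.05, edgeR gave 3 genes higher and 4 lower, 7 of 34, beside 23.4% of all genes. The median of the 34 was -0.15 beside 0.00, with 12 positive and 22 negative, beside 49.7% negative among all genes. The groups did not overlap for 4 genes higher in CON-OLD-iBP, Egln1, Ndrg1, Pfkfb4 and Vegfa, beside 14.3% of all genes. They did not overlap for 10 genes lower, Aldoa, Ankrd37, Car9, Gpi1, Ldha, Pfkfb3, Pfkl, Pfkm, Pgam1 and Slc16a1, beside 15.8%. Pfkm had 25.5, 31.5 and 19.1 CPM in CON-OLD-iBP and 55.4, 46.3 and 51.9 CPM in OLD (-1.01, SE 0.23, adjusted p = 0.0538). Pfkfb4 had 54.7, 64.6 and 66.4 CPM in CON-OLD-iBP and 26.8, 31.5 and 25.8 CPM in OLD (1.14, SE 0.35, adjusted p = 0.0827). In both genes each group was tight and the gap between groups was wider than the spread within them. Ankrd37 had 1.70, 1.01 and 1.84 CPM in CON-OLD-iBP and 7.48, 2.05 and 8.66 CPM in OLD (-2.00, SE 0.64, adjusted p = 0.0894), and OLD 2 was close to the CON-OLD-iBP values. Vegfa had 419, 342 and 272 CPM in CON-OLD-iBP and 144, 129 and 134 CPM in OLD (1.34, SE 0.45, adjusted p = 0.101), the lowest CON-OLD-iBP library being far above the highest OLD library. Ndrg1 averaged 173 ± 94.7 CPM in CON-OLD-iBP and 35.8 ± 20.9 CPM in OLD (SD, n = 3 each; 2.28, SE 0.81, adjusted p = 0.113). Within set 3, against OLD 2 alone, Ndrg1 was the 1 gene called (3.90, adjusted p = 0.0158), beside 0.857% of all genes. Without OLD 2, 3 genes were called, Ankrd37, Pdk1 and Pfkm, all lower, beside 7.87% of all genes, and without CON-OLD-iBP 2 Pfkm alone, beside 0.690%. Marker lists differed widely between these groups: 20 of 20 macrophage (median -3.68), 8 of 9 osteoclast (median -6.20) and 12 of 12 proliferation genes (median -1.67, 10 with no overlap) were negative, and 7 of 7 chondrocyte markers were positive (median 5.94). Macrophage markers took 0.0548% to 0.109% of the counts in CON-OLD-iBP and 0.159% to 1.24% in OLD. The part of these lists in the values of the 34 genes was not tested.

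Against CKO-OLD, all 6 libraries lie in set 3, and the comparison is free of the split by set. The groups differ both in the iBP label and in the deletion, however, and these cannot be told apart here. edgeR called 0 of the 34 genes with 1 spread for all groups, beside 1.29% of all genes, DESeq2 called 2 of the 34, beside 8.89%, and limma-voom 1, beside 1.62%. With only the 2 groups fitted 1 gene passed, beside 4.44%, and with a replicate block 1, beside 4.24%, Ndrg1 in both. An unadjusted p under 0.05 was reached by 2 genes higher and 4 lower, beside 19.6% of all genes. The median was -0.16 beside -0.01, with 12 positive and 22 negative, beside 51.0% negative among all genes. No overlap was seen for 3 genes higher in CON-OLD-iBP, Ndrg1, Pfkfb4 and Vegfa, beside 14.5% of all genes, and for 5 lower, Eno2, Hif1a, Pfkfb3, Pfkl and Pfkm, beside 16.0%. Neither count was above its background share. Ndrg1 had 274, 85.2 and 161 CPM in CON-OLD-iBP and 12.8, 15.0 and 17.6 CPM in CKO-OLD (3.52, SE 0.85, adjusted p = 0.0584), a wide gap, though the CON-OLD-iBP values themselves were spread out. Pfkm had 25.5, 31.5 and 19.1 CPM in CON-OLD-iBP and 38.9, 46.7 and 55.0 CPM in CKO-OLD (-0.88, SE 0.23, adjusted p = 0.0687). Pfkfb3 had 47.2, 51.2 and 45.0 CPM in CON-OLD-iBP and 67.7, 98.4 and 90.2 CPM in CKO-OLD (-0.84, SE 0.27, adjusted p = 0.116). The 2 kinase-phosphatase genes thus lay on opposite sides in CON-OLD-iBP, Pfkfb3 under and Pfkfb4 over the CKO-OLD range. Hif1a had 211, 217 and 213 CPM in CON-OLD-iBP and 311, 429 and 395 CPM in CKO-OLD (-0.82, SE 0.28, adjusted p = 0.126), lower in all 3 CON-OLD-iBP libraries.

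The calls in this comparison differed between fits. With a term for library set, which brought the biological coefficient of variation to 39.7% from 51.9% without it, 5 of the 34 genes passed, Hif1a, Pfkfb3 and Pfkm lower and Ndrg1 and Vegfa higher, beside 12.3% of all genes. With 1 coefficient for each group and set, 8 passed, these 5 and Adm and Eno2 lower and Pfkfb4 higher, beside 18.7% of all genes. Without CON-OLD-iBP 2, Ndrg1 and Pfkm passed, beside 3.00% of all genes. Ndrg1 had the smallest adjusted p of the 34 with 1 coefficient for each group and set (0.000189) and Pfkm with the set term (0.00807). Markers differed as well: the 11 osteoblast markers, the 20 macrophage markers and the 12 proliferation genes were all negative in CON-OLD-iBP against CKO-OLD (medians -0.71, -1.90 and -1.22), the last taking 0.0211% to 0.0300% of the counts in CON-OLD-iBP and 0.0533% to 0.0641% in CKO-OLD. Their part in the values of the 34 genes was not tested.

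Age within the deletion is compared by CKO-OLD against CKO-YOUNG. All CKO-OLD libraries are of set 3, whereas CKO-YOUNG 1 and 2 are of set 2, so age and library set are largely confounded here. edgeR called 0 of the 34 genes, beside 0.700% of all genes, DESeq2 called 5 (Car9, Hk1, Pfkfb4, Pgam1 and Pkm), beside 12.5%, and limma-voom 1 (Aldoc), beside 1.53%. With only these 2 groups fitted, Hk1 and Pfkfb4 passed, beside 4.87%. With a term for library set, 0 of the 34 passed, beside 0.0362% of all genes. An unadjusted p under 0.05 was reached by 7 genes higher and 2 lower, 9 of 34, beside 24.5% of all genes. Of the 34 genes, 21 were positive and 13 negative, beside 49.4% positive among all genes, with a median of 0.17 beside -0.00. There was no overlap for 10 genes higher in CKO-OLD, Hk1, Aldoa, Aldoc, Tpi1, Pgk1, Pgam1, Eno2, Pkm, Pfkfb4 and Car9, beside 16.3% of all genes, and for 3 lower, Epas1, P4ha2 and Vegfa, beside 15.2%. Pkm had 5378, 4733 and 5398 CPM in CKO-OLD and 2718, 2934 and 2265 CPM in CKO-YOUNG (0.97, SE 0.27, adjusted p = 0.0708). Pfkfb4 had 43.3, 46.9 and 35.3 CPM in CKO-OLD and 17.1, 17.7 and 18.5 CPM in CKO-YOUNG (1.23, SE 0.35, adjusted p = 0.0743). Both were at or above 1.5 times as high in each CKO-OLD library as in any CKO-YOUNG library. Hk1 had 300.1, 353 and 329 CPM in CKO-OLD and 167, 179.8 and 191 CPM in CKO-YOUNG (0.87, SE 0.26, adjusted p = 0.0826). Pgam1 had 939, 935 and 862 CPM in CKO-OLD and 666, 677 and 650.1 CPM in CKO-YOUNG (0.46, SE 0.14, adjusted p = 0.0847). In set 3, where CKO-YOUNG has library 3 alone, Pfkfb4 and Pkm were called, beside 5.38% of all genes, and the smallest adjusted p was 0.0114, that of Pfkfb4. Without CKO-YOUNG 3, the library with RNA of both sexes, 3 genes were called, Aldoc and Car9 higher and Slc16a1 lower, beside 15.7% of all genes. Of the markers, 19 of the 20 for macrophages were positive in CKO-OLD against CKO-YOUNG, the list taking 0.159% to 0.679% of the counts in CKO-OLD and 0.0157% to 0.113% in CKO-YOUNG. Osteoclast markers were positive for 8 of 9 (median 3.38) and chondrocyte markers for 6 of 7 (median 3.39), and all 12 proliferation genes were negative (median -0.75). The part of these lists was not tested.

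The age difference with the deletion (CKO-OLD less CKO-YOUNG) was also set against that in mice without a transgene (OLD less YOUNG). The unequal library sets of CKO-OLD and CKO-YOUNG enter this difference as well. None of the 34 genes passed by edgeR, DESeq2 or limma-voom, and edgeR called 0% of all genes, with 12.0% at an unadjusted p under 0.05 and 4 of the 34, all positive. The smallest p were those of Pfkfb4 at 1.70 (SE 0.50, adjusted p = 0.32), Car9 at 3.74 (SE 1.39, adjusted p = 0.341), Aldoc at 2.97 (SE 1.27, adjusted p = 0.385) and Pkm at 0.83 (SE 0.38, adjusted p = 0.406). The Car9 value rests on YOUNG 3, without which it was 1.34 (adjusted p = 0.685). Over the 34 genes 21 differences were positive and 13 negative, beside 50.7% positive among all genes, with a median of 0.06 beside 0.01. Without YOUNG 3 the direction turned, with 13 positive and 21 negative, beside 50.7% negative, and a median of -0.10 beside -0.01. Without CKO-OLD 1 the median was -0.03 beside -0.00. Without CKO-YOUNG 3, Aldoc was called, beside 0.383% of all genes, and within set 3, Pfkfb4, beside 0.960%. All 20 macrophage markers were positive and all 12 proliferation genes negative here (medians 2.94 and -0.83), and their part was not tested.

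**Figure D4:**
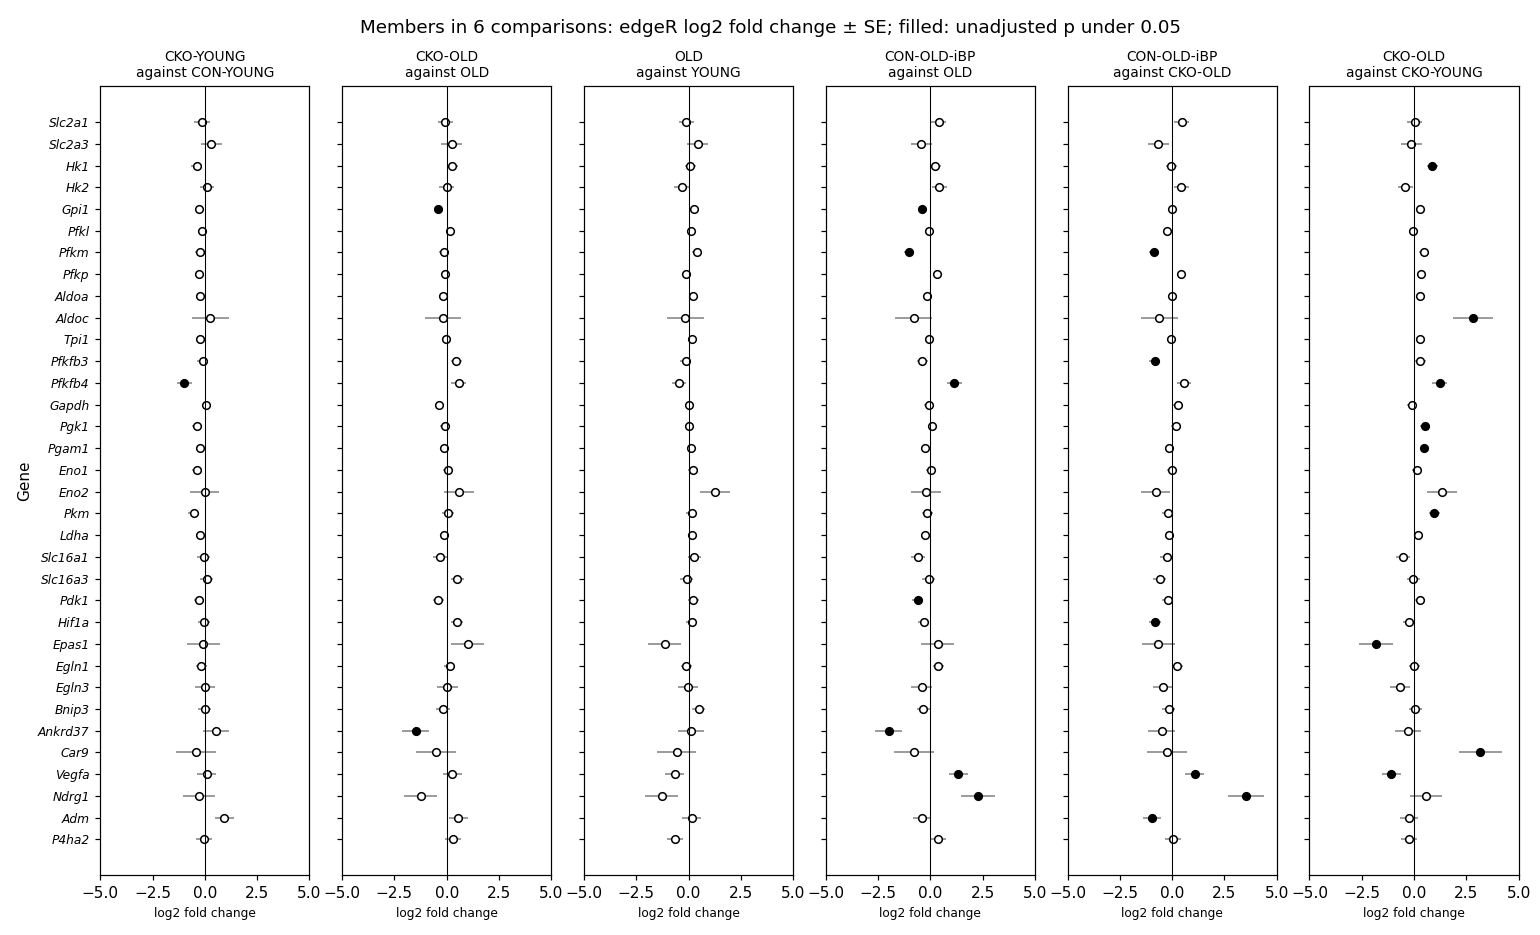
Log2 fold change with its SE for the 34 genes in 6 comparisons, 1 panel each, filled points being those with an unadjusted p under 0.05. Most points lie within 1 log2 unit of 0, and the widest departures are those of Ndrg1, Car9 and Aldoc.

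The controls of the 2 experiments were compared as well, CON-YOUNG against YOUNG, which differ in mouse line, in library set and in sex. Xist was at 0.404 CPM or less in every CON-YOUNG library, but at 432 and 391 CPM in YOUNG 1 and 2. Car9 was the 1 gene of the 34 that was called, lower in CON-YOUNG, beside 5.55% of all genes called in either direction. DESeq2 called Car9, Hif1a and Ndrg1, beside 12.8%, limma-voom called Aldoc, beside 3.34%, and edgeR with RLE size factors called Car9, beside 5.53%. It had 1.07, 0.478 and 2.30 CPM in CON-YOUNG and 3.58, 3.32 and 48.6 CPM in YOUNG, means of 1.28 ± 0.928 and 18.5 ± 26.1 CPM (SD, n = 3 each), and a log2 fold change of -3.85 (SE 1.07, adjusted p = 0.0485). The groups did not overlap, but 1 library carried most of the difference: without YOUNG 3 the log2 fold change was -1.46 and the adjusted p 0.282. The sample titles name no pairs, and replicate 3 is the set 3 library in both groups, so replicate cannot be told apart from set. With replicate as a block the log2 fold change was -3.00 with an adjusted p of 0.154. With a term for library set it was -3.42, with an adjusted p of 0.305. Leaving out CON-YOUNG 1, CON-YOUNG 2, YOUNG 1 or YOUNG 2 also ended the call, with adjusted p from 0.0508 to 0.212. Without CON-YOUNG 3, 6 genes were called, Aldoc, Car9, Ndrg1 and Pfkfb4 lower and Epas1 and Hif1a higher, beside 17.1% of all genes, and without YOUNG 3, Egln1 and Pfkl were, both higher, beside 7.26%.

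A further 3 genes were near the threshold in this comparison. Aldoc had 0.985, 0.864 and 5.18 CPM in CON-YOUNG and 29.3, 21.4 and 24.1 CPM in YOUNG (-3.41, SE 0.97, adjusted p = 0.0538). Ndrg1 had 9.14, 8.64 and 19.6 CPM in CON-YOUNG and 46.5, 39.5 and 176 CPM in YOUNG (-2.81, SE 0.82, adjusted p = 0.061). Hif1a had 558, 429 and 387 CPM in CON-YOUNG and 194, 279 and 248 CPM in YOUNG (0.93, SE 0.28, adjusted p = 0.062). With Car9 these were the 4 genes whose groups did not overlap, 1 higher, beside 10.1% of all genes, and 3 lower, beside 13.0%. Over the 34 genes 18 were positive and 16 negative, beside 49.1% positive among all genes, with a median of 0.02 beside -0.01, and 7 had an unadjusted p under 0.05, beside 23.0% of all genes. All 20 macrophage markers were called lower in CON-YOUNG, at 0.0214% to 0.0517% of the counts in CON-YOUNG and 0.377% to 1.75% in YOUNG. Proliferation genes were positive for 11 of 12 (median 0.75) and chondrocyte markers negative for 6 of 7 (median -1.42). The part of these lists was not tested. Within set 3 the median of the 34 was -0.25 beside -0.00, with 25 genes negative, beside 50.2% of all genes. Without YOUNG 3 it was 0.24 beside 0.02, with 23 genes positive, beside 51.3%.

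Neighbouring pathways gave few calls. In every comparison except 2, none of the other glycolytic isozymes and transporters (19 tested), the genes of pyruvate entry into mitochondria (14), the pentose phosphate pathway (8), glycogen and gluconeogenesis (14), other HIF targets (37) and other HIF pathway components (13) passed the test of edgeR. In CON-OLD-iBP against CKO-OLD, which differ both in iBP and in the deletion, edgeR called 1.29% of all genes. Of the 14 pyruvate entry genes 1 rose, Pdp1, a phosphatase that reactivates pyruvate dehydrogenase, with 21.4, 21.0 and 24.5 CPM in CON-OLD-iBP and 9.93, 10.5 and 9.68 CPM in CKO-OLD (1.15, SE 0.26, adjusted p = 0.0475). So did 1 of the 14 glycogen genes, Pgm2, a sugar phosphomutase, with 41.0, 40.0 and 35.4 CPM in CON-OLD-iBP and 18.5, 24.8 and 20.2 CPM in CKO-OLD (0.87, SE 0.19, adjusted p = 0.0424). Both are steps next to glycolysis, and in both every CON-OLD-iBP library was above every CKO-OLD library. Both calls were lost without the filter on low counts (adjusted p from 0.053 to 0.0576) and with any 1 of the 6 libraries left out (0.0532 to 0.171). Pdp1 was also missed by limma-voom (0.06), and Pgm2 with a replicate block (0.0523) and without set 1 (0.0717). Both held with DESeq2, RLE size factors, a library set term and only these groups fitted.

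In CON-YOUNG against YOUNG, edgeR called 5.55% of all genes, 285 higher and 634 lower of 16566. Of the 19 isozymes 1 fell, Hk3, a hexokinase of blood cells, with 2.74, 2.72 and 6.24 CPM in CON-YOUNG and 176, 147 and 29.3 CPM in YOUNG (-4.91, SE 0.87, adjusted p = 0.0141). The macrophage markers fell beside it, as given above. Taldo1, the transaldolase of the pentose phosphate pathway, fell to 86.1, 96.8 and 203 CPM in CON-YOUNG, against 321, 281 and 256 CPM in YOUNG (adjusted p = 0.0257). Pdk3, a kinase that inactivates pyruvate dehydrogenase, rose, with 64.0, 53.1 and 52.5 CPM in CON-YOUNG and 31.9, 32.0 and 39.3 CPM in YOUNG (adjusted p = 0.0184). It was the 1 pathway gene named here that was higher in CON-YOUNG. Of the 37 other HIF targets, 3 fell and 0 rose: Cxcr4, a chemokine receptor, Kdr, the main VEGF receptor of blood vessels, and Hilpda, a lipid droplet protein. Cxcr4 had 2.24, 2.15 and 1.45 CPM in CON-YOUNG and 42.3, 33.6 and 15.5 CPM in YOUNG (adjusted p = 0.0162). Kdr had 0.334, 0.331 and 1.00 CPM in CON-YOUNG and 12.2, 14.5 and 2.41 CPM in YOUNG (adjusted p = 0.02). Hilpda had 9.59, 12.1 and 21.3 CPM in CON-YOUNG and 42.8, 26.4 and 38.7 CPM in YOUNG (adjusted p = 0.0249). All 3 were lower in every CON-YOUNG library than in any YOUNG library. Kdr is also 1 of the 7 endothelial markers. That list took 0.000386% to 0.000593% of the counts in CON-YOUNG and 0.00074% to 0.00245% in YOUNG. The part of cell types in these values was not tested. With replicate as a block, none of Hk3, Taldo1, Pdk3, Cxcr4, Kdr and Hilpda was called (adjusted p from 0.123 to 0.203), nor was any other gene of the table. The 6 calls were also lost with a library set term (0.214 to 0.571), with only these groups fitted, within set 3 and without set 1. Leaving out CON-YOUNG 1, CON-YOUNG 2 or YOUNG 1 ended them too (0.0556 to 0.143), and without YOUNG 2, 3 of the 6 were called. By limma-voom 4 of the 6 were called, and Cxcr4 (0.0824) and Kdr (0.0737) were not. All 6 were called by DESeq2, with RLE size factors and without the filter on low counts.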

How the data were processed

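RNA was sequenced in 18 libraries, placed in 6 groups by the submitters' titles, and 8 CUT&Tag samples were not used. The values deposited by the authors are raw counts of reads for each gene symbol, not normalized, as their whole numbers show. The submitters' processing notes name FastQC, Trim Galore, HISAT2 and mm39. No version, counting program, annotation or use of strand is given in these sources. The filter was filterByExpr of edgeR, with a minimum count of 10 and a minimum total of 15. After TMM scaling, the quasi-likelihood F test of edgeR was run (robust, 1 coefficient per group, 12 residual degrees of freedom), two-sided, with Benjamini-Hochberg adjustment over 16566 genes and a threshold of 0.05. Adjusted p-values are from this test unless another is named. CPM came from these counts and TMM library sizes; means are given ± SD over 3 libraries.

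The 34 genes and all lists were chosen with earlier results of these data known. Per-library values are given for genes of glucose entry, the HIF machinery and hypoxia targets, and in each comparison for genes past the threshold or, where fewer than 4 pass, for the 4 of smallest p; other values per library were chosen after they were seen. Of neighbouring pathways, up to 3 called genes a list are named. Library set 3 holds libraries with Malat1 above 0.05% of the counts, and the others were parted by label. Alternatives were RLE size factors, no filter, DESeq2, limma-voom, only the groups compared, a replicate block, a library set term, fits within sets and each library left out; a fit without set 1 was added after seeing the data. Where a set or group keeps 1 library, that library is assumed to vary like the others. Deviations from group means of same-numbered libraries correlated at 0.28, 0.33 and 0.32 between CKO-YOUNG and CON-YOUNG. Between CON-YOUNG and YOUNG they correlated at 0.18, 0.35 and 0.34. In the other comparisons at least 1 correlation was under 0.1. Replicate 3 is the set 3 library in CKO-YOUNG, CON-YOUNG and YOUNG alike, so a pairing by number cannot be told apart from library set there. The sample titles name no pairs. OLD 1 and OLD 3 were the most alike pair (Spearman 0.995), at 6.23 times counting noise, and were kept as 2 libraries. The fit was tested on simulated counts. Depth limits precision little: 1 count is at most 0.0203 CPM. Tools were edgeR 4.0.16, DESeq2 1.42.0 and limma 3.58.1 in R 4.3.3, and pandas 2.3.3 and matplotlib 3.10.9 in Python 3.11.15. Of 26264 symbols, 24964 matched a gene name table.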

Additional observations from a re-analysis of the deposited data

How the results depend on the processing

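The counts of called genes among the 34 were compared with those of other settings. DESeq2 called 5 genes in CON-OLD-iBP against OLD, 5 in CKO-OLD against CKO-YOUNG, 2 in CON-OLD-iBP against CKO-OLD and 3 in CON-YOUNG against YOUNG; limma-voom called 1 each in CKO-OLD against CKO-YOUNG, CON-OLD-iBP against CKO-OLD and CON-YOUNG against YOUNG, the last being Aldoc and not Car9. Fitting only the groups compared gave 2 and 1 there. Within library set 3 the counts were 4 in CKO-YOUNG against CON-YOUNG, 5 in CKO over both ages, 1 in CON-OLD-iBP against OLD, 2 in CKO-OLD against CKO-YOUNG, 8 in CON-OLD-iBP against CKO-OLD and 1 in the difference of age effects. The library set term gave 5 in CON-OLD-iBP against CKO-OLD. In CON-YOUNG against YOUNG the call of Car9 was lost, leaving 0 genes, with the set term, without the filter on low counts, with only the groups compared, within set 3 and without set 1, with adjusted p from 0.0614 to 0.305. For each of these fits that called any of the 34, the share of all genes called stands with its comparison above. The cause of these changes was not tested.

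With the replicate block, 1 gene was called in CON-OLD-iBP against CKO-OLD and 0 in CON-YOUNG against YOUNG, where replicate 3 is of set 3 in both groups. The block changed no other count. With each library left out in turn, the counts ran from 0 to 3 in CON-OLD-iBP against OLD, 0 to 3 in CKO-OLD against CKO-YOUNG, 0 to 2 in CON-OLD-iBP against CKO-OLD, 0 to 6 in CON-YOUNG against YOUNG and 0 to 1 in the difference of age effects, and were 0 throughout in the other 5 comparisons. The fits with the largest counts called, in the same order, 7.87%, 15.7%, 3.00%, 17.1% and 0.383% of all genes. RLE size factors changed no count. The sign of Car9 in CON-YOUNG against YOUNG held in every setting. Of 40 pairs of gene and comparison called in some setting, 7 had the opposite sign in another: in CON-YOUNG against YOUNG, Egln1 and Pfkl (0.69 and 0.67 without YOUNG 3, where called) were -0.71 and -0.23 within set 3, and Epas1 and Pfkfb4 (2.31 and -0.85 without CON-YOUNG 3, where called) were -1.11 and 0.15 there. The others were Pfkfb4 in CKO over both ages (-0.67 called within set 3, 0.15 without CON-YOUNG 3), Pdk1 in CON-OLD-iBP against OLD (-0.84 called without OLD 2, 0.05 within set 3) and Slc16a1 in CKO-OLD against CKO-YOUNG (-0.87 called without CKO-YOUNG 3, 0.64 within set 3). With 3 libraries a group and a biological coefficient of variation of 51.9%, a p that misses the threshold does not show that levels were alike.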
